A study of Homo sapiens with 40 samples.

Results

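Long noncoding RNAs that host small nucleolar RNAs, or that are known for a nuclear place, were followed in BEAS-2B cells, an immortalised line of human bronchial epithelium. The 45 members of the 62263 genes in the deposited table were every symbol of SNHG followed by digits, together with GAS5, ZFAS1, DANCR, EPB41L4A-AS1, MALAT1, NEAT1, KCNQ1OT1, OIP5-AS1, NORAD, LINC-PINT, FTX, JPX, MIR22HG, CYTOR, PVT1, TUG1 and MEG3. They were split by their known biology into 32 snoRNA host genes, 7 nuclear RNAs (MALAT1, NEAT1, KCNQ1OT1, FTX, JPX, LINC-PINT and MEG3) and 6 other long noncoding RNAs (NORAD, OIP5-AS1, TUG1, CYTOR, PVT1 and MIR22HG). RNA was sequenced by Frac-seq, in which total RNA of a lysate (input) is set beside RNA taken from the ribosome-rich fractions of a sucrose gradient (polysome). The 8 groups of 5 libraries were input or polysome RNA of cells carrying a control short hairpin (shControl) or a hairpin against the RNA-binding protein IGF2BP3 (shIGF2BP3, called knockdown here), with or without IL-13 (100 ng/ml, 24 h). All 8 groups had been starved in medium with 2% serum, and all libraries were made from poly(A)-selected RNA. The growth protocol names constitutive shControl and shIGF2BP3 lines and no further line or clone, so the hairpin and any other difference between the lines cannot be told apart. The sample titles write siC and siIGF2BP3 instead, a conflict that the labels do not settle, and what the 5 libraries of a group replicate depends on it. Nothing in the labels tied a replicate number to a separate culture or day, so p-values measure the spread between these libraries, which may be technical.

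Host genes carry snoRNAs in their introns. The snoRNAs are processed out of the excised introns and guide chemical changes of ribosomal RNA, while the spliced exons leave the nucleus, hold few or no conserved reading frames and, for GAS5 and several SNHG genes, are bound by ribosomes and removed by nonsense-mediated decay, which destroys RNAs with an early stop. Several host genes begin with a run of pyrimidines, the terminal oligopyrimidine (TOP) start shared with the mRNAs of ribosomal proteins, whose translation follows growth signals through mTOR. MALAT1 lies in nuclear speckles and NEAT1 builds paraspeckles. KCNQ1OT1 silences imprinted neighbours in cis, and FTX and JPX act around XIST. NORAD binds Pumilio proteins in the cytoplasm, and MALAT1 and the long NEAT1 isoform end in a folded structure in place of a poly(A) tail.

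Depth differed between fractions. Input libraries held 26558345 ± 6565279 estimated counts (SD, n = 20), and polysome libraries 19066962 ± 11019838 (SD, n = 20), from 1816848 upwards. Fewer than 5000000 counts were found in 3 libraries, all of polysome RNA from the knockdown line (unstimulated replicates 1 and 5, IL-13 replicate 5). Counts were scaled to CPM, the counts of a gene relative to the TMM-scaled library size, so a CPM is relative to the other RNAs of its own library. In bulk RNA, fewer cells with an RNA and less of it per cell cannot be told apart. The targeted gene, IGF2BP3, measured 35.2 CPM ± 11.3 in control and 24.9 ± 3.02 in knockdown unstimulated input (SD, n = 5 each), with an edgeR adjusted p of 1. The libraries labelled knockdown were therefore not set apart by it, and every direction for the knockdown rests on the labels. Of the epithelial markers, KRT8 (median 1240 CPM in input) and KRT18 (650) were high, while EPCAM and CDH1 were near 0 (medians of 0.409 and 0.599). The basal cell marker TP63 had a median of 0, and VIM, a mesenchymal marker, one of 1890 CPM. Of markers of other cells, PTPRC (leukocytes) was at 0 in all 20 input libraries and PECAM1 (endothelium) had a median of 0, while the fibroblast marker COL1A1 had a median of 539 CPM in input and 94.4 in polysome RNA. The part of VIM and COL1A1 in the results was not tested.

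The sequences at the annotated starts are shown first, since some host genes share a kind of start with ribosomal protein mRNAs. A run was counted where the first base was a C followed by at least 4 bases that were each C or T, read on the RNA's own strand at the RefSeq start (build GRCh38.p14). Such a run stood at the first base in 7 of 28 host genes with an entry (25%), in 0 of 5 nuclear RNAs, in 0 of 5 other members and in 48 of 67 ribosomal protein genes (71.6%). Of all 27305 genes with an entry, 5.14% had one. Within 5 bases of the start on either side the shares were 46.4% of hosts, 3 of 5 nuclear RNAs, 82.1% of ribosomal protein genes and 25.2% of all genes. The hosts with a run at the first base were SNHG4, SNHG5, SNHG12, SNHG18, SNHG19, SNHG32 and ZFAS1. RefSeq starts need not be those used in these cells. For GAS5, SNHG14 and SNHG27 the RefSeq start used lay outside the gene's GENCODE 29 model, so their place among hosts without a run is uncertain and the GAS5 start is not shown. Those of SNHG3, SNHG4, SNHG16 and DANCR lay just outside it. The LINC-PINT start with a run within 5 bases lay beyond the far end of its model, so its place among the 3 nuclear RNAs is uncertain too. A run is a description of letters and not a tested TOP element.

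Each stretch below runs 5′ to 3′ from 50 bases before the start to the first 50 bases of the RNA, with the run in capitals beginning at the first base. The stretches are ZFAS1 at chr20:49278592-49278691 on the plus strand, SNHG5 at chr6:85678684-85678783 on the minus strand, SNHG19 at chr16:2155309-2155408 on the minus strand. Further ones are SNHG32 at chr6:31834866-31834965 on the plus strand and SNHG4 at chr5:139274051-139274150 on the plus strand. The hosts with a run that are not shown are SNHG12 (run of 11 bases) and SNHG18 (21 bases). They fell least in polysome RNA of the hosts with a run, and SNHG18 was not called lower. The stretches shown are therefore not a fair sample of hosts with a run. OIP5-AS1 (chr15:41283940-41284039 on the plus strand) is given for comparison, since it also fell in polysome RNA and has no run at this start.
ZFAS1: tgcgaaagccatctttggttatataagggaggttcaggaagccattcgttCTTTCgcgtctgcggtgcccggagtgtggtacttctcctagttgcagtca
SNHG5: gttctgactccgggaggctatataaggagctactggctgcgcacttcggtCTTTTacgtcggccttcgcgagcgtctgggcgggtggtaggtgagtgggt
SNHG19: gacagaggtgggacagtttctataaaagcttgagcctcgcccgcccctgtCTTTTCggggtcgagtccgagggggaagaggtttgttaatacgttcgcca
SNHG32: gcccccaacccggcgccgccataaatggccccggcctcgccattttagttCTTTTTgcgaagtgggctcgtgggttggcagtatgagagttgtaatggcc
SNHG4: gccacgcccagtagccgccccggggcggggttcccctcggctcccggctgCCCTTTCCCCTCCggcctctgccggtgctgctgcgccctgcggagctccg
OIP5-AS1: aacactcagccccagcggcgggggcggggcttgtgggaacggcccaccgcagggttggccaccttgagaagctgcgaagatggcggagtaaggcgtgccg

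The hosts with the highest input level per length were GAS5, SNHG6 and SNHG19. In TPM, a share of all transcripts corrected for their length, GAS5 measured 129 ± 39.3 in input and 26.5 ± 7.84 in polysome RNA (SD, n = 20 each). SNHG6 measured 88.7 ± 16.1 and 17.7 ± 4.61 TPM, and SNHG19, with a longest annotated transcript of 342 nt, 57.3 ± 13.2 and 10.7 ± 5.23 TPM. On average these 3 stood above the nuclear RNAs in TPM, of which NEAT1 had 38.1 ± 16.8 TPM and MALAT1 17.2 ± 4.32 TPM in input. The input range of NEAT1 (16.7 to 78 TPM) overlapped those of SNHG19 (36.9 to 87) and SNHG6 (56.8 to 114), but not that of GAS5 (79.5 to 265). The spread of NEAT1 reached into that of SNHG32 (39.3 ± 21.5) and NORAD was higher (69 ± 12.5). In CPM, without correction for length, the order turned. Mean input CPM was 78.9 for NEAT1 and 60.4 for MALAT1, against 53.6 for GAS5, 36.3 for SNHG6 and 11.3 for SNHG19. The part of poly(A) selection in the levels of MALAT1 and NEAT1 was not tested. Summed over the 32 hosts, input held 443 TPM ± 101 and polysome RNA 114 ± 26.4 (SD, n = 20), against 57 ± 17.6 and 12.5 ± 6.31 for the 7 nuclear RNAs. SNHG1, one of the best known hosts, was listed at 0 in 36 of 40 libraries and had 5, 10, 21 and 39 counts in the others. DANCR, a host known for roles in progenitor cells, was nearly absent, with 0.333 CPM on average in input. A filter on low counts over all genes kept 39 members (26 hosts, all 7 nuclear and all 6 other RNAs). The 6 left out were SNHG1, SNHG22, SNHG27, SNHG28, SNHG30 and SNHG31.

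Whether these RNAs lie on polysomes was asked by comparing polysome with input RNA in each of the 4 settings of line and treatment. Most were lower in polysome RNA, and none was called higher. With the mean of the 4 settings, 30 of 39 tested members were lower in polysome RNA (edgeR quasi-likelihood test, Benjamini-Hochberg adjusted p under 0.05 over all genes), against a background of 38.9% of all 16735 genes called lower and 26.2% called higher. By class, 21 of 26 hosts, 6 of 7 nuclear RNAs and 3 of 6 other RNAs fell. The median log2 difference of polysome from input was -1.66 over the hosts, -1.81 over the nuclear RNAs, -0.74 over the others and -0.24 over all genes tested. In single settings the lower members were 19 in unstimulated control (background 22.8%), 18 in IL-13 control (22.6%), 16 in unstimulated knockdown (22.0%) and 21 in IL-13 knockdown (23.3%). The 4 settings use separate libraries. Of all genes, 17.4%, 16.7%, 16.4% and 16.0% were called higher in the same order. Before adjustment, 1 member (MIR22HG) was higher in IL-13 control (background 19.3%) and 0 in the other settings (20.0%, 19.1% and 18.5%) or over the 4 (27.4%). The DESeq2 Wald test called 1 member higher, in IL-13 control. The share of all genes that the Wald test called higher is not given here.

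**Figure D1:**
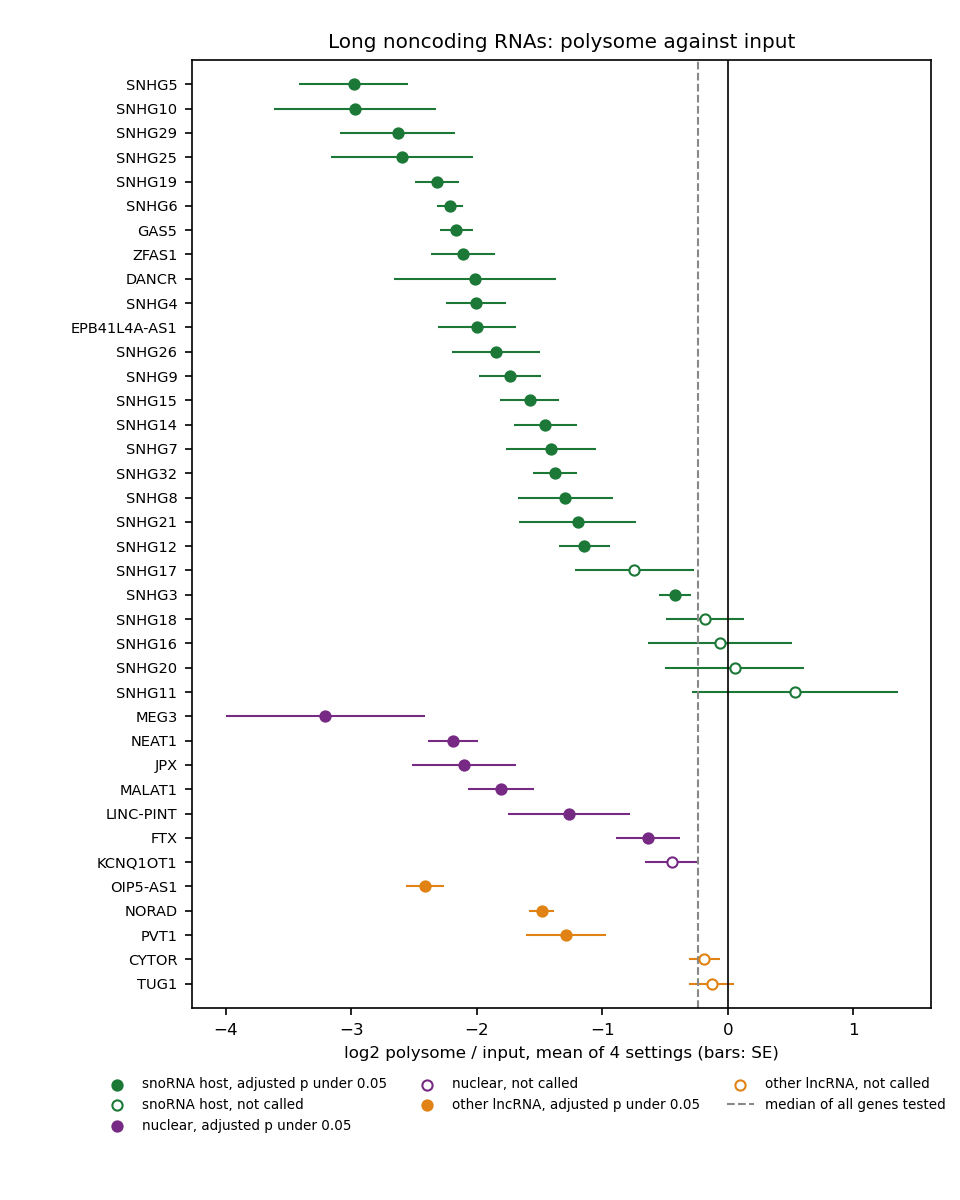
The x axis is the log2 difference of polysome from input RNA (mean of 4 settings, bars are SE of the fit over 40 libraries) and each row is a tested member, grouped by class; filled points have an edgeR adjusted p under 0.05. Filled points are all left of 0, 30 in number, and MIR22HG is left out because its error could not be estimated. MEG3, SNHG5, SNHG10, SNHG29 and SNHG25 lie farthest left with wide bars, TUG1 and CYTOR beside the median of all genes at -0.24.

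Among abundant hosts, GAS5 and SNHG6 fell in each of the 4 settings. GAS5 measured 110, 50.2, 41.6, 51.0 and 55.7 CPM in unstimulated control input and 18.3, 13.7, 6.4, 12.9 and 15.1 CPM in the polysome libraries of replicates 1 to 5. With IL-13 it measured 41.7, 42.3, 40.2, 42.7 and 48.1 CPM in control input and 14.6, 16.6, 7.18, 6.15 and 11.2 CPM in polysome. Input replicate 1 of unstimulated control was high, at 110 CPM, and no polysome library of any setting, at most 19.1 CPM, reached the lowest input library at 40.2 CPM. The log2 difference over the 4 settings was -2.16 ± 0.129 (SE), a level 4.47-fold lower (edgeR adjusted p = 1.48e-17). SNHG6, host of a box C/D snoRNA and the subject of many cancer studies, ran from 28.6 to 44.0 CPM over 20 input libraries (median 36.6) and from 5.28 to 11.6 over 20 polysome libraries (median 7.35). Its fractions did not overlap either, and the log2 difference was -2.22 ± 0.102 (SE, edgeR adjusted p = 8.54e-21). In single settings SNHG6 ran between -1.99 and -2.47 and GAS5 between -1.95 and -2.42.

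ZFAS1, antisense to the ZNFX1 promoter and host of 3 annotated snoRNAs, was scarcer. In unstimulated control it measured 7.46, 5.20, 2.92, 4.94 and 9.82 CPM in input and 0.626, 3.00, 1.73, 3.38 and 4.57 CPM in polysome, with overlap between the fractions. In IL-13 knockdown it measured 7.39, 5.10, 3.74, 7.37 and 8.92 CPM in input and 0.788, 1.31, 0.767, 0.933 and 0 CPM in polysome, without overlap. Over the 4 settings the log2 difference was -2.11 ± 0.256 (SE, edgeR adjusted p = 2.88e-09). In unstimulated control alone it was -1.19 ± 0.488 (edgeR adjusted p = 0.0496), a call that was lost in 8 of the 10 fits that left out 1 library of those groups (-1.46 to -0.95). SNHG19, host of 2 annotated snoRNAs and named after its values were seen, had 18.3, 10.0, 7.94, 10.8 and 11.8 CPM in unstimulated control input and 3.65, 2.09, 1.31, 5.18 and 2.79 CPM in polysome. Every polysome library of the 4 settings, at most 5.18 CPM, was below every input library, and the log2 difference was -2.32 ± 0.175 (SE, edgeR adjusted p = 1.30e-14). SNHG4 (-2.01 ± 0.236) and SNHG32 (-1.38 ± 0.177), also named after their values were seen, fell as well (SE, edgeR adjusted p = 1.44e-09 and 1.04e-08). SNHG4 shares its strand with MATR3, so reads of both genes cannot always be told apart.

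SNHG3 stood apart from these hosts. It overlaps RCC1 on the same strand and hosts 2 annotated snoRNAs, and the reads of SNHG3 and RCC1 may have been split by the counting. In unstimulated control it measured 44.3, 19.1, 14.4, 19.6 and 25.5 CPM in input and 28.0, 16.9, 11.6, 11.4 and 15.5 CPM in polysome, and in IL-13 control 13.2, 17.2, 15.3, 23.7 and 24.4 CPM against 16.6, 16.4, 18.0, 13.9 and 22.0 CPM. The fractions overlapped in all 4 settings. Its log2 difference was -0.42 ± 0.131 (SE, edgeR adjusted p = 0.00518), which is a level 1.34-fold lower, and no single setting passed the test. The 5 tested hosts that were not called were SNHG11, SNHG16, SNHG17, SNHG18 and SNHG20, all with a mean under 5 CPM, and their values ran from -0.75 to 0.54. The other 14 called hosts ran from -2.98 for SNHG5 to -1.14 for SNHG12. Between these lay SNHG10, SNHG29, SNHG25, DANCR, EPB41L4A-AS1, SNHG26, SNHG9, SNHG15, SNHG14, SNHG7, SNHG8 and SNHG21. EPB41L4A-AS1, a host that overlaps EPB41L4A on the other strand, ran from 3.10 to 21.8 CPM in input (median 8.60) and from 0 to 4.89 CPM in polysome (median 2.08), and its log2 difference was -2.0 ± 0.314 (SE, edgeR adjusted p = 6.30e-07). SNHG10, SNHG25 and DANCR were under 1 CPM on average in both fractions, so their fitted folds say little of size.

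The nuclear RNAs MALAT1 and NEAT1 also fell. NEAT1 measured 70.7, 116, 58.7, 64.5 and 73.4 CPM in unstimulated control input and 12.0, 11.7, 9.02, 15.8 and 14.8 CPM in polysome. In IL-13 knockdown it measured 53.5, 57.9, 134, 92.2 and 70.3 CPM in input and 21.0, 13.1, 23.1, 28.4 and 0.433 CPM in polysome. Every polysome library of the 4 settings lay below every input library. The lowest, at 0.433 CPM, was one of the 3 shallow libraries. The log2 difference of NEAT1 was -2.19 ± 0.2 (SE, edgeR adjusted p = 2.57e-12). MALAT1 measured 69.6, 84.8, 57.5, 53.8 and 76.8 CPM in unstimulated knockdown input and 5.74, 15.1, 9.88, 12.9 and 76.3 CPM in polysome. Polysome replicate 5, the shallowest library of the series at 1816848 counts, reached the input range, and the other 4 did not. Without it the log2 difference there moved from -1.61 to -2.50. In unstimulated control MALAT1 had 40.0, 54.8, 55.4, 73.7 and 48.8 CPM in input and 3.76, 37.2, 15.7, 5.95 and 11.6 CPM in polysome, without overlap. Over the 4 settings the log2 difference was -1.81 ± 0.264 (SE, edgeR adjusted p = 1.59e-07).

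The other 5 nuclear RNAs were all under 5 CPM on average. KCNQ1OT1, with an annotated length of 91667 nt, was the 1 nuclear RNA not called. It ran from 1.92 to 5.12 CPM in input (median 3.57) and from 0.433 to 5.24 CPM in polysome (median 2.28), with overlap in every setting. Its log2 difference was -0.45 ± 0.213 (SE, edgeR adjusted p = 0.0637). FTX was lower by the test over the 4 settings (-0.63 ± 0.255, edgeR adjusted p = 0.0283) and JPX too (-2.10 ± 0.413, adjusted p = 2.83e-05), each with overlap in at least 3 settings. FTX was not lower in every setting: in unstimulated knockdown its log2 difference was 0.22 and was not called. LINC-PINT, which is linked to p53, had -1.26 ± 0.488 (SE, edgeR adjusted p = 0.0226) at 0.591 CPM in input. MEG3 had a fitted value of -3.21 ± 0.794 (SE, edgeR adjusted p = 0.000749) at 0.206 CPM in input, with 18 of 20 polysome libraries at 0, and such a fitted value against libraries at 0 is no measure of size.

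The other long noncoding RNAs split, in CPM, into RNAs that fell strongly and RNAs that lay near all genes. OIP5-AS1, which is conserved as Cyrano and pairs with miR-7, had the lowest ratio of the 10 members with at least 10 CPM. It measured 155, 164, 163, 94.9 and 114 CPM in unstimulated control input and 26.1, 37.6, 15.4, 21.6 and 21.4 CPM in polysome. No polysome library of the 4 settings, at most 53.3 CPM, reached an input library. The log2 difference was -2.41 ± 0.151 (SE), 5.33-fold lower (edgeR adjusted p = 6.16e-17). OIP5-AS1 overlaps the coding genes AC087721.2 on its own strand and OIP5 on the other, so their reads cannot always be told apart. NORAD, the most abundant member by CPM, measured 261, 348, 359, 279 and 277 CPM in unstimulated control input and 91.2, 139, 101, 85.7 and 117 CPM in polysome, again without overlap in any setting. NORAD fell by 1.48 ± 0.101 on the log2 scale (SE, edgeR adjusted p = 5.76e-16). TUG1, a regulator with roles in both compartments, measured 18.2, 49.5, 40.0, 24.1 and 26.6 CPM in unstimulated control input and 16.2, 24.4, 44.3, 17.5 and 29.2 CPM in polysome. CYTOR, linked to the actin cytoskeleton, ran from 10.7 to 23.0 CPM in input (median 16.3) and from 3.99 to 21.5 in polysome (median 14.6). For both, the fractions overlapped in all 4 settings. The log2 differences were -0.13 ± 0.179 and -0.19 ± 0.126 (SE, edgeR adjusted p = 0.546 and 0.195), and the sign of each changed with the setting: TUG1 was at 0.02 with a length offset and CYTOR at 0.04 without the 3 shallow libraries. Corrected for length, CYTOR was lower in polysome RNA, at 12.6 ± 3.74 TPM in input and 6.87 ± 2.75 in polysome (SD, n = 20 each). With a length offset it was at -0.48 in IL-13 control. TUG1 had 5.35 ± 1.92 and 4.67 ± 2.84 TPM. PVT1, a neighbour of MYC, was the third of this class to fall (-1.29 ± 0.32, SE, edgeR adjusted p = 0.000555), from a median of 3.96 CPM in input to 1.44 in polysome, with overlap in 3 settings. MIR22HG, the host of miR-22, was at 0 in 13 input and 17 polysome libraries and is given no fold. In unstimulated control all polysome libraries were at 0. Its mean input level there, 0.992 CPM, was 4.09-fold above a floor of 3 counts per library. Only 3 of the 5 input libraries held it, so the fractions overlapped and the bound is for the mean alone.

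**Figure D2:**
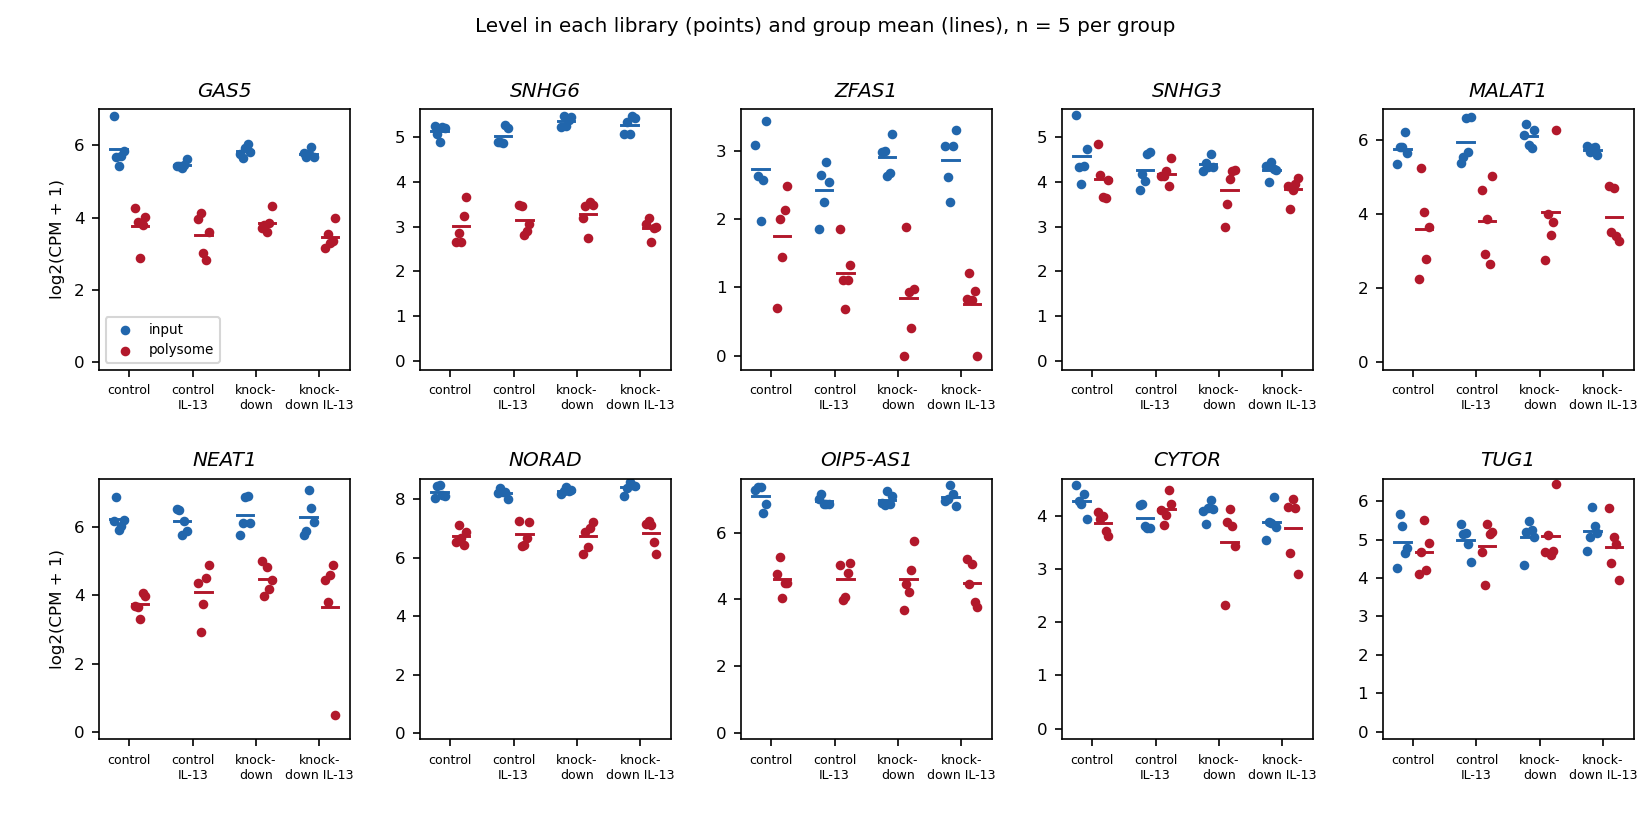
The y axis is log2(CPM + 1) of 10 members in each of 40 libraries, with input in blue and polysome in red, 5 libraries per group and the group mean as a line. GAS5, SNHG6, NEAT1, NORAD and OIP5-AS1 show no overlap between fractions, 1 polysome library of MALAT1 (76.3 CPM) lies in the input range, and SNHG3, CYTOR and TUG1 overlap throughout.

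Separation of libraries was counted for every tested member. All 5 polysome libraries lay below all 5 input libraries for 14 members in unstimulated control (background 15.6% of all genes), 15 in IL-13 control (16.2%), 17 in unstimulated knockdown (19.7%) and 18 in IL-13 knockdown (21.5%), and none lay above. GAS5, NEAT1, NORAD, OIP5-AS1, SNHG4, SNHG6 and SNHG19 had no overlap in any of the 4 settings, and the other members overlapped in some or all. The matching share of all genes over the 4 settings was not counted, so this has no background. Ranked among all genes by the mean log2 difference, OIP5-AS1 stood at percentile 4.61, SNHG6 at 5.96, NEAT1 at 6.16, GAS5 at 6.41, ZFAS1 at 6.78, MALAT1 at 9.98 and NORAD at 14.6, while SNHG3 stood at 43.2, CYTOR at 51.9 and TUG1 at 53.8.

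The host genes and the nuclear RNAs were then compared in polysome share, which is the polysome CPM as a percent of polysome plus input CPM in libraries of the same number. A share of 50% means equal CPM in both libraries and not an equal split of the RNA. In unstimulated control the median host had a share of 22.3% ± 5.37 and the median nuclear RNA 19.5% ± 7.04 (SD, n = 5 pairs). In IL-13 control these were 28.5% ± 2.95 and 20% ± 10.6, in unstimulated knockdown 19.6% ± 11.6 and 24.8% ± 14.4, and in IL-13 knockdown 16.3% ± 9.23 and 20% ± 11.7. Hosts were the higher class in control cells and the lower class in knockdown cells, within the spread between pairs except in IL-13 control, where the difference was larger than the SD of the hosts but not that of the nuclear RNAs. All genes had a median share of 45.6%, 45.9%, 45% and 44.6% in the same order, and ribosomal protein mRNAs 47.4%, 44.6%, 42.8% and 41.3%. Of single members over all 20 pairs, OIP5-AS1 had 15.7% ± 5.41, SNHG6 17.8% ± 4.06, GAS5 18.5% ± 4.74, NEAT1 18.5% ± 8.45, MALAT1 20.6% ± 11.8, NORAD 26.2% ± 5.72, SNHG3 42.8% ± 6.81 and TUG1 46.5% ± 12.7 (SD). The ranges of GAS5 (12.6% to 28.3%) and NEAT1 (0.613% to 37.1%) overlapped each other.

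The shares differed without the 3 shallow libraries. The median host share was 0 in pair 1 of unstimulated knockdown and pair 5 of IL-13 knockdown, and the nuclear one was 49.8% in pair 5 of unstimulated knockdown, all with a shallow polysome library. With pairs of at least 5000000 counts only, an alternative chosen after seeing the data, the unstimulated knockdown shares were 23.3% ± 4.76 for hosts and 17.6% ± 4.28 for nuclear RNAs (SD, n = 3), and the IL-13 knockdown shares 20.4% ± 1.75 and 24.9% ± 5.02 (SD, n = 4). As a difference of class medians of log2((polysome CPM + 1) / (input CPM + 1)) within a pair, hosts minus nuclear RNAs was 0.00 ± 0.436 in unstimulated control, 0.03 ± 0.286 in IL-13 control, -0.53 ± 0.481 in unstimulated knockdown and -0.21 ± 0.433 in IL-13 knockdown (SD, n = 5). Over all 20 pairs it was -0.17 ± 0.445 (SD) and ran from -0.98 to 0.53, below 0 in 13 pairs. Its sign depended on the members: with MALAT1, NEAT1 and KCNQ1OT1 as the nuclear class it was between 0.24 and 0.89 in the 4 settings, and with members of at least 10 CPM (4 hosts and 2 nuclear RNAs) between 0.28 and 0.75, hosts being higher. With TPM in place of CPM it was -0.63 in unstimulated control, -0.44 in IL-13 control and -0.84 in IL-13 knockdown. The pseudocount of 1 was kept for TPM, and it draws the ratio of a scarce RNA to 0. Of the nuclear RNAs, only MALAT1 and NEAT1 were above 1 TPM on average in input, while most tested hosts were. The TPM values therefore cannot order the classes. In CPM the pseudocount acts on scarce members too, and one of 0.1 CPM gave 0.53 in IL-13 control. In every setting the range of the hosts overlapped that of the nuclear RNAs.

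**Figure D3:**
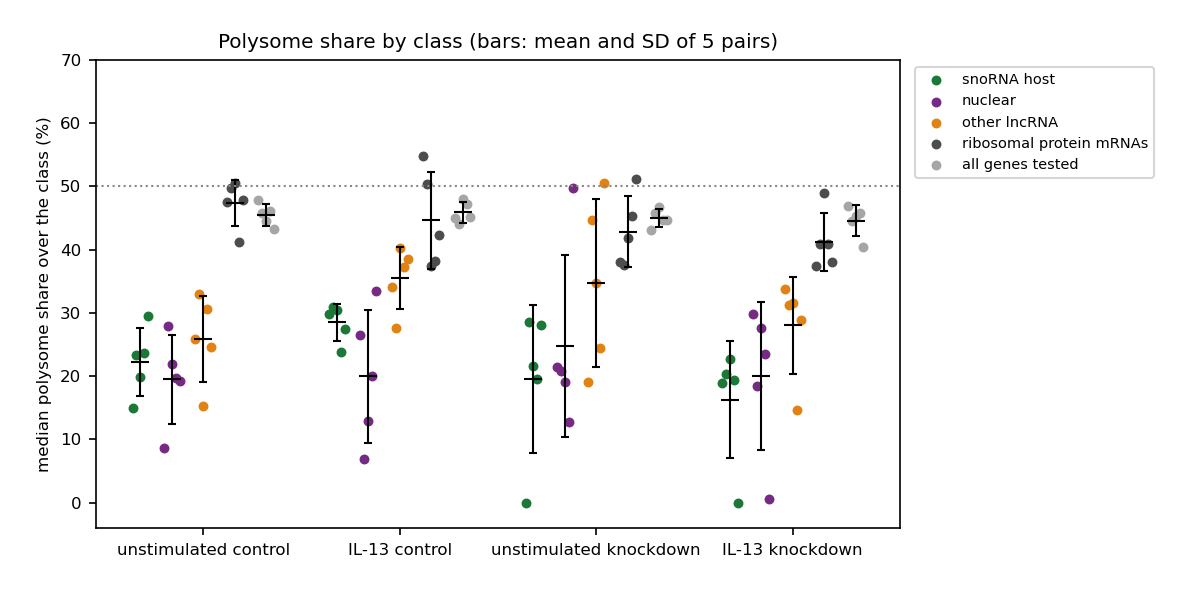
The y axis is the median polysome share over the genes of a class (percent), each point 1 pair of same-numbered libraries, with the mean and SD of 5 pairs in black, for 4 settings on the x axis. Host and nuclear points mix in every setting (means 16.3% to 28.5% and 19.5% to 24.8%) with means below those of ribosomal protein mRNAs and all genes; the green points at 0 are pairs with a shallow polysome library.

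Ribosomal protein mRNAs, the classical mRNAs with a TOP start, served as the comparison for the starts shown above. Of 82 tested, 46 were lower and 20 higher in polysome RNA (background 38.9% lower and 26.2% higher), with a median of -0.42, against -1.66 for hosts and -0.24 for all genes. Ribosomal protein mRNAs with a run at the first base had a median of -0.49 (n = 48) and those without one 0.06 (n = 17). Hosts with a run at the first base had a median of -2.01 (n = 7, from -2.98 for SNHG5 to -0.18 for SNHG18) and hosts without one -1.41 (n = 15, from -2.97 to 0.54). The ranges of both kinds of host overlapped, and the hosts without a run include GAS5 and SNHG14, whose starts are uncertain. With the window of 5 bases the order of the hosts turned, at -1.39 with a run (n = 12) and -1.65 without (n = 10). These are descriptions over genes, which are not independent samples, and no test was made.

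**Figure D4:**
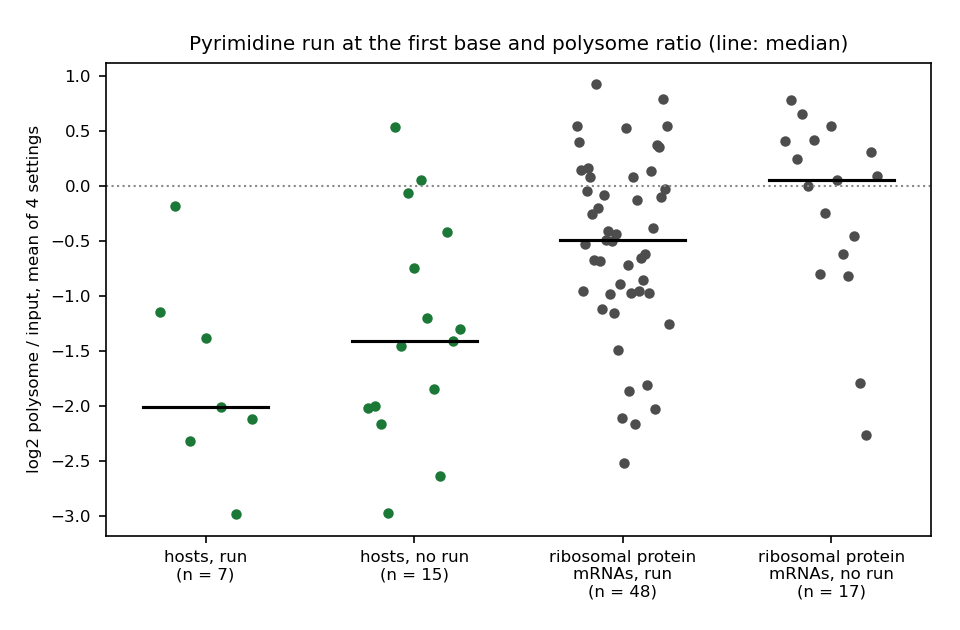
The y axis is the log2 difference of polysome from input (mean of 4 settings) and each point is a tested gene, split by class and by a pyrimidine run at the first base of its RefSeq start, with the median as a line. The points of hosts with a run (median -2.01) overlap those of hosts without (-1.41), and ribosomal protein mRNAs of either kind (-0.49 and 0.06) lie higher.

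The gene models were read from GENCODE 29 (GRCh38), where all 45 members had an entry. Of the 32 hosts, 30 held at least 1 snoRNA or scaRNA gene on their own strand, up to 84 in SNHG14 (chr15:24978583-25419462), while none of the nuclear or other RNAs did. GAS5 (chr1:173863900-173868882) and SNHG27 held none in this annotation, although GAS5 is a known host. SNHG32, counted here as a host by its symbol, is typed as protein-coding in this annotation. Whether that bears on its polysome level was not tested. Hosts were short when spliced, with a median longest transcript of 1638.5 nt (278 to 13074 nt), against 12267 nt for nuclear RNAs and 6404 nt for the others. Across 38 tested members without MIR22HG, the length of the longest transcript and the log2 difference had a Spearman rho of 0.277, given as a description over genes that share all 40 libraries. A protein-coding gene overlapped 6 members on the same strand, among them SNHG3 with RCC1, SNHG14 with SNRPN and OIP5-AS1 with AC087721.2, and 20 on the other strand. Without knowledge of how the counting used strand, the values of these members are less certain.

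The genes that act with these RNAs were read from lists made from general knowledge. Of 10 mRNAs of paraspeckle proteins, the partners of NEAT1, 6 were lower and 3 higher in polysome RNA, with a median of -1.04, where 38.9% of all genes were lower and 26.2% higher. SFPQ (-1.84) and NONO (-1.61), which coat NEAT1, fell, and NUDT21 (1.49) and TARDBP (1.30) rose. Of 13 mRNAs of snoRNP proteins, which bind the snoRNAs that the hosts carry, 7 were lower and 5 higher against the same background, with a median of -0.27. NOP58 (-1.19) fell, and GAR1 (1.76) and FBL (1.44), the methyltransferase of box C/D snoRNPs, rose. Of 15 mRNAs of nonsense-mediated decay factors, 8 were lower and 4 higher, the latter near the background share, with a median of -0.21. UPF1 (-3.88) and SMG1 (-2.11), its kinase, fell, and MAGOH (1.45) and MAGOHB (1.51) of the exon junction complex rose. All of these are log2 differences over the 4 settings with an edgeR adjusted p under 0.05. None of these genes was called for the knockdown, IL-13 or a shift.

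Whether the IGF2BP3 hairpin changed these RNAs was asked in each fraction and treatment. No member was called in any of the 4 comparisons by edgeR. In simulated data the test of unstimulated input recovered 32.5% of 2-fold and 62.5% of 4-fold changes. The background in either direction was 0.012% of all genes in unstimulated input, 0.0% in IL-13 input, 0.0299% in unstimulated polysome and 0.0896% in IL-13 polysome. Before adjustment (p under 0.05) the counts were 0 members in unstimulated input (background 1.35% higher and 1.62% lower), 1 higher and 1 lower in IL-13 input (1.48% and 1.52%), 5 higher and 6 lower in unstimulated polysome (3.31% and 4.11%), and 0 higher and 5 lower in IL-13 polysome (3.69% and 6.23%). The DESeq2 Wald test called 1 member in IL-13 input (MIR22HG) and 2 in unstimulated polysome (MIR22HG and SNHG5), both with libraries at 0. The share of all genes called by the Wald test is not given here, so these calls have no background. The 5 lower members in IL-13 polysome were all hosts: SNHG9 (-1.67 ± 0.504), SNHG15 (-1.28 ± 0.468), SNHG32 (-0.90 ± 0.355), SNHG19 (-0.83 ± 0.348) and SNHG10, with edgeR adjusted p-values from 0.192 to 0.402. Of ribosomal protein mRNAs in the same comparison, 37 of 82 were lower and 0 higher before adjustment, so the direction was not particular to hosts. SNHG9 measured 1.84, 1.45, 0.968, 1.65 and 1.41 CPM in control and 0.713, 0.514, 0.539, 0.0644 and 0.433 CPM in knockdown IL-13 polysome, without overlap. In counts these were 17, 33, 29, 56 and 13 against 19, 13, 19, 2 and 1, the last from a shallow library. ZFAS1 in unstimulated polysome ran from 0.626 to 4.57 CPM in control and from 0 to 2.69 in knockdown, with overlap (log2 difference -1.32 ± 0.527, edgeR adjusted p = 0.486). NEAT1 there measured 31.2, 14.7, 27.4, 17.3 and 21.0 CPM in knockdown against 12.0, 11.7, 9.02, 15.8 and 14.8 CPM in control, with 1 knockdown library below the highest control library (0.81 ± 0.395, edgeR adjusted p = 0.664). The median change over all tested members was 0.02 in unstimulated input, 0.07 in IL-13 input, 0.08 in unstimulated polysome and -0.23 in IL-13 polysome, beside -0.01, -0.01, -0.03 and -0.04 over all genes. The values in polysome libraries of the knockdown line rest in part on the 3 shallow libraries.

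Whether IL-13, the cytokine of type-2 airway inflammation, changed these RNAs was asked in the same way. No member was called by edgeR in any of the 4 comparisons, where 0.0777%, 0.0837%, 0.125% and 0.0956% of all genes were called in control input, knockdown input, control polysome and knockdown polysome. Before adjustment (p under 0.05) the counts were 0 higher and 2 lower members in control input (background 1.07% and 0.968%), 0 in knockdown input (0.699% and 0.335%), 4 higher and 0 lower in control polysome (2.32% and 2.82%), and 1 higher (1.44%) and 1 lower (1.77%) in knockdown polysome. The nearest to the threshold was SNHG5. In control polysome it had 0, 0, 0.262, 0 and 0 CPM unstimulated and 2.28, 1.59, 1.87, 2.06 and 1.09 CPM with IL-13, without overlap. In counts these libraries held 0, 0, 5, 0 and 0 against 21, 36, 56, 70 and 10. The edgeR adjusted p was 0.0694. It was called by the DESeq2 Wald test, with no filter on low counts and without the 3 shallow libraries. No matching share of all genes is given for these alternatives. In knockdown polysome SNHG5 had 0, 1.35, 1.88, 1.64 and 0 CPM unstimulated and 0.15, 0, 2.21, 0.933 and 0 CPM with IL-13, with overlap. In input of the control line it had 11.1, 2.87, 4.75, 5.53 and 3.83 CPM unstimulated and 2.44, 8.80, 1.03, 2.96 and 2.94 CPM with IL-13, also with overlap. Its shift, the change of the polysome to input difference with IL-13 in control cells, had an edgeR adjusted p of 0.602. GAS5 was lower with IL-13 in control input before adjustment (-0.52 ± 0.243, edgeR unadjusted p = 0.039, adjusted p = 1), where unstimulated replicate 1 at 110 CPM lay far above the other 4 (41.6 to 55.7 CPM). MALAT1, NEAT1, NORAD and OIP5-AS1 had unadjusted p-values above the threshold in all 4 IL-13 comparisons.

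Shifts of the polysome to input difference with the knockdown or with IL-13 were tested as interaction terms. No member was called in the 4 comparisons (background 0.0%, 0.00598%, 0.0% and 0.0% of all genes). In simulated data the test of the unstimulated knockdown shift recovered 0.5% of 2-fold and 58.5% of 4-fold changes, so smaller shifts would mostly be missed. Before adjustment, 4, 1, 3 and 1 members had a p under 0.05 for the knockdown without and with IL-13 and for IL-13 in control and knockdown cells, in either direction. The background was 0.962% higher and 0.729% lower, 0.998% and 0.795%, 0.914% and 1.03%, and 0.621% and 0.687%. The DESeq2 Wald test called MIR22HG and SNHG5 for the shift with IL-13 in control cells, again without a matching share of all genes.

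**Figure D5:**
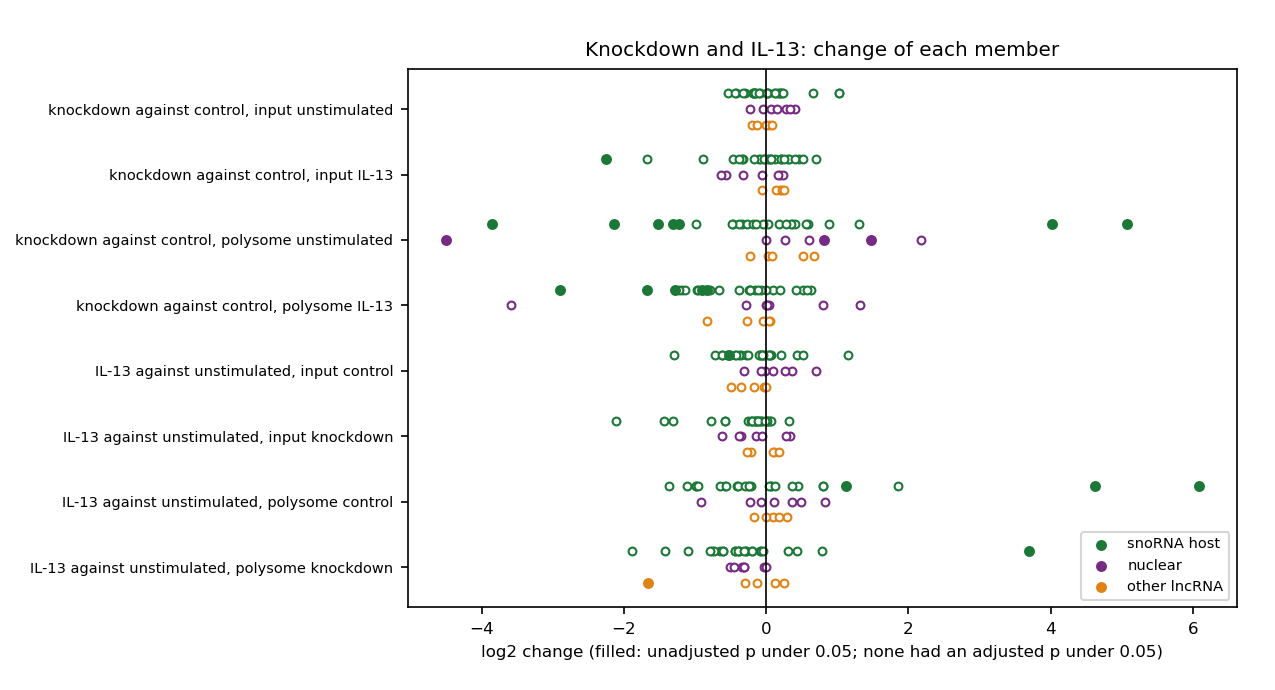
The x axis is the log2 change of each tested member except MIR22HG in 8 comparisons of line or treatment (rows), coloured by class; filled points have an unadjusted p under 0.05 and none had an adjusted p under 0.05. Polysome points spread more widely than input points, and the points above 4 are SNHG5 and SNHG10, hosts with libraries at 0.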

How the data were processed

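Input and polysome RNA were measured in 40 libraries (8 groups of 5), grouped by the labels. The authors deposited estimated counts and length-corrected TPM per gene. The submitters' processing notes name DESeq2, MultiQC, Salmon and Trimmomatic, without version or role. The genome build and annotation are not given in the sources used here. Gene symbols were matched for 62246 of 62263 gene IDs. The members and the gene lists were chosen with earlier results of these data known.

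Estimated counts were rounded to whole numbers, filtered with edgeR's filterByExpr over the 8 groups (16735 genes) and TMM-scaled. One model with a mean for each group was fitted by edgeR 4.0.16 (quasi-likelihood, R 4.3.3) over 40 libraries, with 32 residual degrees of freedom. Polysome against input, knockdown, IL-13 and interaction contrasts were tested, and p-values were adjusted by Benjamini-Hochberg over all genes. Shares and class medians were computed with Python 3.11.15 (pandas 2.3.3), with a pseudocount of 1 CPM on log scales. Their pairs join libraries of 1 number only as bookkeeping. Alternatives were DESeq2 1.42.0, other size factors, no filter, a transcript-length offset, leaving out libraries and blocking. Start sequences came from RefSeq (GRCh38.p14), gene models from GENCODE 29. Of the members, NEAT1, PVT1, KCNQ1OT1, SNHG6, SNHG9, SNHG15 and SNHG25 had no start entry used here.

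Always named were MALAT1, NEAT1, GAS5, ZFAS1, SNHG1, NORAD and IGF2BP3. Also named were the 3 highest and 3 lowest members by mean polysome to input difference among those of at least 10 CPM, and any member called for line, IL-13 or a shift. Others are named after their values were seen. The fit was tested on simulated data with 200 changed genes. Over the 4 settings, polysome against input recovered 65.5% of 2-fold and 88.5% of 4-fold changes. For the knockdown in unstimulated input these were 32.5% and 62.5%, and for the unstimulated knockdown shift 0.5% and 58.5%. A member that was not called may therefore still have changed. No 2 libraries of a group agreed within sampling noise (lowest chi-square per degree of freedom 15.27 over 80 pairs).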

Additional observations from a re-analysis of the deposited data

Results flagged for a closer look

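Of 96 group values examined, 12 had a library or pair far from the other 4 of its group. For normal and independent values about 1 in 20 (4.8) would be flagged, which CPM values are not. A group with 4 libraries at 0, as for SNHG1, is always flagged, and several flags share a library. The count of 12 is therefore no measure of an excess. GAS5 was at 110 CPM in unstimulated control input replicate 1, with the others at 41.6 to 55.7 CPM. NEAT1 was at 116 CPM in replicate 2 of the same group, with the others at 58.7 to 73.4 CPM.

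A single library, unstimulated knockdown polysome replicate 5, gave 3 of these values at 1816848 counts in all. In it GAS5 was at 19.1 CPM (39 counts, others 11.2 to 13.3 CPM), MALAT1 at 76.3 CPM (156 counts, others 5.74 to 15.1 CPM) and TUG1 at 86.5 CPM (177 counts, others 23.3 to 33.6 CPM). The nuclear RNAs of the same pair had a median polysome share of 49.8%, with the other pairs at 12.8% to 21.4%.

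SNHG1 was at 0 in the other 4 libraries of each of 4 groups and reached 1.39 CPM in unstimulated control input replicate 1, 0.161 CPM in IL-13 control input replicate 2, 0.392 CPM in IL-13 knockdown input replicate 2 and 0.947 CPM in unstimulated control polysome replicate 4. In IL-13 knockdown, the median host share was 0% in pair 5 (others 18.9% to 22.8%), and the median share of the other long noncoding RNAs was 14.7% in pair 4 (others 28.9% to 33.8%).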

How the results depend on the processing

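The direction of GAS5, SNHG6, NEAT1, MALAT1, NORAD, OIP5-AS1, ZFAS1 and SNHG3 over the 4 settings held in every alternative run, and 28 to 32 members were lower over the 4 settings in the alternatives on all libraries or on the deep ones. With 1 library left out the counts were 14 to 18, 15 to 20, 15 to 19 and 18 to 22 in unstimulated control, IL-13 control, unstimulated knockdown and IL-13 knockdown. Counts of called members moved from 0 in 5 comparisons. The DESeq2 Wald test gave 1 for the knockdown in IL-13 input, 2 in unstimulated polysome, 1 for IL-13 in control input, 2 in control polysome and 2 for the shift with IL-13 in control cells. For IL-13 in control polysome, no filter and the 37 libraries of at least 5000000 counts gave 1 (SNHG5), and leaving out 1 library gave 0 to 1 (SNHG29 without polysome IL-13 control replicate 2, SNHG5 without polysome unstimulated control replicate 3). These members had libraries at 0. The cause was not tested. The share of all genes called in each alternative is not given here, so these counts have no background.

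Hosts minus nuclear RNAs, as log2 ratios, moved with the members, the unit and the pseudocount. In unstimulated control it was -0.63 with TPM, 0.89 with MALAT1, NEAT1 and KCNQ1OT1 as the nuclear class and 0.52 with members of at least 10 CPM. In IL-13 control it was 0.53 with a pseudocount of 0.1 CPM, -0.44 with TPM, 0.84 with those 3 and 0.75 with members of at least 10 CPM. In unstimulated knockdown the last 2 gave 0.24 and 0.28. In IL-13 knockdown TPM gave -0.84 and the last 2 gave 0.63 and 0.47. Without 1 pair it ran from -0.13 to 0.13, -0.06 to 0.12, -0.72 to -0.41 and -0.35 to -0.05. The TPM values kept a pseudocount of 1, which draws RNAs under 1 TPM to 0, so they cannot order the classes.

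Among the 10 members followed through the alternatives, signs turned for CYTOR and TUG1, which were not called. CYTOR was at -0.48 in IL-13 control with a length offset. In IL-13 knockdown it was at 0.0694 with DESeq2 size factors, 0.30 with 37 libraries, 0.0894 with the Wald test and -0.16 to 0.13 without 1 library. TUG1 was at 0.0047 with 37 libraries, 0.0108 with a length offset and -0.25 to 0.0911 without 1 library in IL-13 control. It was at -0.20 with 37 libraries and -0.20 to 0.30 without 1 library in unstimulated knockdown, and at 0.0191 with 37 libraries in IL-13 knockdown. Over the 4 settings CYTOR was at 0.0365 with 37 libraries and TUG1 at 0.021 with a length offset.

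The replicate numbers did not pair libraries: input and polysome of the same number had a median correlation of 0.0145 (-0.487 to 0.621), over 0.1 in 9 of 20 pairs, and 4 of 20 input libraries were nearest to their own number. Unstimulated control stood apart, with 0.586, 0.0194, 0.621, 0.171 and 0.46, of which 1 was under 0.1. With the number as a replicate block 16, 18, 15, 20 and, over the 4 settings, 30 members were lower, and with the block of culture 18, 17, 18, 20 and 32. In unstimulated control ZFAS1 lost its call with the block of culture and kept it with the number as a block. The number as a block gave no call for the knockdown, IL-13 or a shift. The block of culture gave no call for a shift. It was not fitted for the knockdown or IL-13 comparisons, since a culture belongs to a single line and treatment. Depth limits the scarce hosts in the shallow polysome libraries, where 1 count is worth a large share of their level.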
